A study of Mus musculus with 2 samples.

Results

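Peritubular myoid cells were taken as the cell barcodes of 2 whole-testis single-cell libraries in which smooth muscle transcripts stood out. A barcode was a member if at most 20% of its UMIs, the tags by which captured RNA molecules are counted, came from mitochondrial genes and if the summed UMIs of Acta2, Myh11, Tagln, Myl9, Actg2 and Des, here called set A, reached 3. Set A also had to hold 0.3% of the barcode's UMIs and to exceed the summed UMIs of Tcf21, Pdgfra, Dcn, Col1a1, Col1a2, Lum and Igf1, the stromal set B. The rule chose 82 of the 37541 barcodes that met the mitochondrial limit (38095 in all). Of these, 80 came from the Prm2 -/- library (22503 barcodes) and 2 from the Prm2 +/- library (15038 barcodes). The members were thus selected on measured transcripts, and every level of a set A or set B gene in them is a description of the selection.

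The mice were homozygous (Prm2 -/-, called KO) or heterozygous (Prm2 +/-, called het) for loss of Prm2, which encodes protamine 2, a protein that packs sperm DNA. Each genotype had 1 library, the het mice carry a mutated allele too, and no wild-type library was used here; the labels name neither strain, age nor number of animals. Testes were stripped of the tunica, digested with collagenase, washed to lower the share of Leydig cells, digested with Accutase and passed through a 100 µm strainer before 15000 cells were loaded in each case. The files hold more barcodes than that, 22885 for KO and 15210 for het, so a barcode may not be 1 loaded cell, and shares below are shares of barcodes. With 1 library per genotype no test of KO against het exists, and all intervals below are 95% intervals for counting error only.

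Peritubular myoid cells are flat, contractile cells that wrap the seminiferous tubules of the testis. Their actin and myosin contract in waves that move sperm and fluid towards the rete testis. Together with Sertoli cells they lay down the basement membrane of the tubule, and in the mouse their differentiation depends on desert hedgehog from Sertoli cells.

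The Prm2 transcript fitted the labels, with 799 UMIs (6.46 CPM, counts scaled to a library sum of 1000000) in the KO library and 874436 UMIs (12253 CPM) in the het library. The KO library held 123588822 UMIs and the het library 71364845. In all, 88 barcode sequences occurred in both libraries, and none of the 82 members was among them (0). KO members had a median of 1360 UMIs (lowest 500, highest 12748) and 1018 genes; the 2 het members had 1098 and 1231 UMIs.  Prm1, Tnp1 and Tnp2 together made up 2.09% of the UMIs of KO members and 3.18% of those of het members, against 2.13% and 1.99% in stromal barcodes of the KO and het libraries.

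Acta2, the smooth muscle actin that gives these cells their usual marker, was seen in 77 of 80 KO members (4431 CPM; interval 4100 to 4783). The share was 6.60% in KO stromal barcodes, 2.92% in KO Sertoli barcodes and 1.73% in KO spermatid barcodes, whose median depth of 4562 UMIs exceeded that of the members. Myh11, the smooth muscle myosin heavy chain, reached 1757 CPM in KO members, and Tagln, the actin-binding protein transgelin, 1575 CPM. In KO stromal barcodes Acta2 stood at 71.1 CPM, Myh11 at 60.2 CPM and Tagln at 32.8 CPM. Myl9, a myosin regulatory light chain, stood at 952 CPM in KO members and also at 166 CPM in KO Sertoli barcodes and 98.5 CPM in KO stromal barcodes. Des, the intermediate filament desmin, had 16 UMIs in 12 of the KO members (107 CPM) and 38.3 CPM in KO stromal barcodes. These 5 genes were higher in the members than in every other class of the KO library, as the rule requires of their sum.

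Actg2, which encodes enteric smooth muscle actin, was not highest in the members. It did exceed its levels in KO stromal (115 CPM), Sertoli (85.1 CPM) and Leydig barcodes (51.7 CPM). It stood at 315 CPM in KO members (interval 232 to 419) and at 441 CPM in KO spermatid barcodes (432 to 451). Of all Actg2 UMIs, spermatid barcodes held 35.9% in the KO library and 49.5% in the het library, and KO members held 0.205%. Without Actg2 in the rule, 75 of the 80 KO members still reached 3 UMIs and 0.3%, and 74 met the whole rule.

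**Figure D1:**
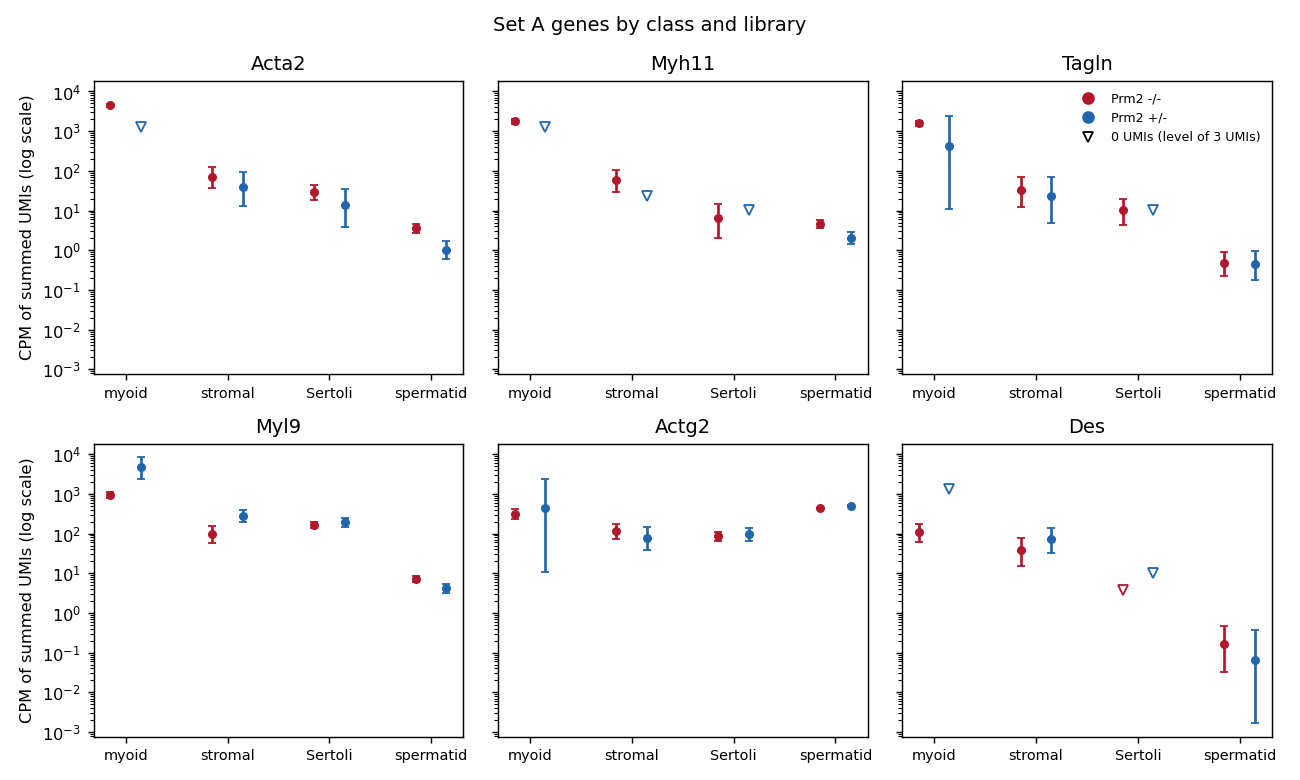
Level of each set A gene in summed UMIs of 4 barcode classes (CPM on a log axis, 95% Poisson intervals), KO left of het; an open triangle marks 0 UMIs, drawn at the level that 3 UMIs would give. In the KO library 5 genes were highest in the members, while Actg2 was at 315 CPM in members and 441 CPM in spermatid barcodes.

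The rule found 0.356% of KO barcodes (interval 0.282% to 0.442%) and 0.0133% of het barcodes (0.00161% to 0.0480%). KO over het, the share was 26.7-fold (interval 7.16 to 225). The same ratio for barcodes chosen on stromal genes was 0.970 (interval 0.713 to 1.33; 106 in KO, 73 in het), for Sertoli barcodes 1.51 (1.24 to 1.84; 343 in KO, 152 in het) and for Leydig barcodes 0.799 (0.643 to 0.992; 190 in KO, 159 in het). Per stromal barcode, members were 27.5-fold more frequent in KO (interval 7.38 to 231). Whether it came from the genotype or from the dissociation of 1 preparation cannot be told apart.

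The 2 het barcodes differed from the KO members and from each other. Neither held an Acta2, Myh11 or Des UMI. The first, with 4 Myl9 UMIs as its whole set A, also met the Sertoli rule and carried 9 UMIs of Defb19, a beta-defensin expressed in Sertoli cells, with 3 of Aard and 2 of Amhr2. The second held 7 Myl9 UMIs, 1 of Tagln and 1 of Actg2, along with 6 of Col4a3, 5 of Col4a4 and 3 of Tpm2, genes that the KO members also carried. Of the KO members 79 held 2 or more UMIs of Acta2, Myh11 and Tagln in sum, as did 0 of the het members; these are genes of the rule.

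Near the limits of the rule, 13 KO members lay under 0.4% set A, and 22 further KO barcodes with at least 3 set A UMIs lay between 0.2% and 0.3%. In the het library 1 member lay under 0.4% and 15 barcodes lay between 0.2% and 0.3%. A further 5 KO barcodes and 0 het barcodes failed because set B was at least as high as set A. Scrublet called 11 of the 80 KO members doublets, against 15.7% of all KO barcodes, and 0 of the 2 het members, against 3.07% of all het barcodes, and 1 KO member also met the spermatid rule.

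Library-wide totals need no choice of barcodes, but for set A genes they count the same transcripts that the rule used. KO members held 46.7% of the Myh11 UMIs and 62.5% of the Tagln UMIs of their library. The totals are thus a description and no independent measure, and the set A genes differed among themselves. In bulk totals of this kind, fewer cells of a type and less RNA per cell cannot be told apart. Acta2 stood at 8.95 CPM in the whole KO library (1106 UMIs) and 1.88 CPM in the whole het library (134 UMIs), a 4.77-fold ratio (interval 3.98 to 5.75). Myh11 was 4.15-fold higher in KO (interval 3.27 to 5.33) and Tagln 3.62-fold higher (2.75 to 4.84). Myl9 differed by 1.16-fold (1.04 to 1.30), Des by 1.66-fold (0.942 to 3.08) and Actg2 by 0.846-fold (0.829 to 0.864).

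In KO, 72 barcodes held 4 or more Acta2 UMIs and the highest held 29. In het, no barcode held 4 or more (0) and the highest held 3, with 131 of 132 positive barcodes at 1 UMI. KO members held 59.8% of all KO Acta2 UMIs; het members held 0 of 134.

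**Figure D2:**
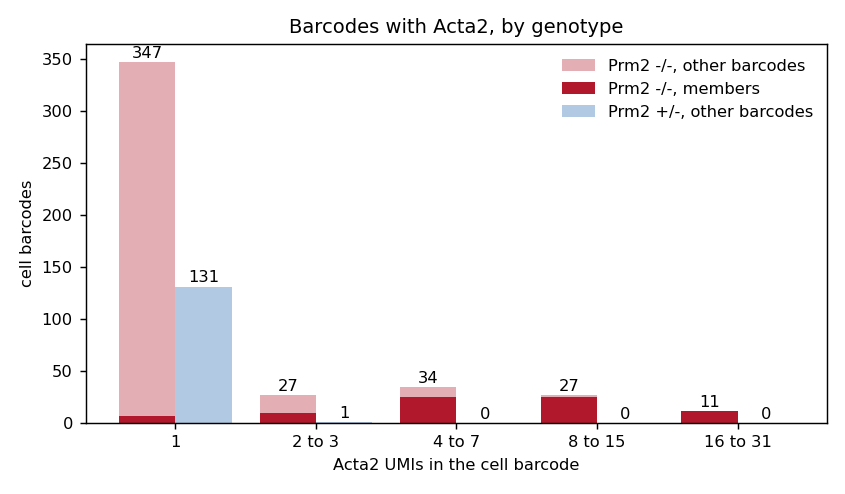
Number of cell barcodes by their Acta2 UMIs, KO left of het, in 5 ranges of UMIs (linear count axis), with members in solid colour; barcodes with 0 UMIs are not drawn. In KO 72 barcodes lie at 4 or more UMIs, in het 0.

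Genes outside the rule, picked after their values were seen because the KO members carried them, gave mixed ratios across whole libraries, as the set A genes did. Lmod1, an actin filament nucleator of smooth muscle, was 3.63-fold higher in KO (interval 2.05 to 6.91). Hhip, a hedgehog target that binds the ligand, was 2.89-fold higher (1.49 to 6.12), and Myocd, the coactivator that drives smooth muscle genes, 2.50-fold higher (1.48 to 4.44). Col4a4 was 1.87-fold higher (1.64 to 2.14) and Col4a3 1.68-fold higher (1.42 to 2.00). Tpm2 was lower in KO at 0.743-fold (0.629 to 0.878), and Itga8 gave 0.885-fold (0.747 to 1.05). KO members held 51.1% of the Lmod1 UMIs of their library but 37.2% of those of Tpm2 and 11.7% of those of Itga8, the rest lying in other barcodes.

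Within the KO library the members fell into 2 ranges of set A share with no barcode between 2.11% and 3.37%. A cut at 3% was placed in that gap after the values were seen, so what follows is a description. The 20 barcodes above it had 500 to 689 UMIs (median 533), 10888 in all, and set A shares of 3.37% to 6.89%. The 60 below it had 625 to 12748 UMIs (median 1516), 138272 in all, and shares of 0.317% to 2.11%. No het barcode lay above the cut (0 of 2).

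**Figure D3:**
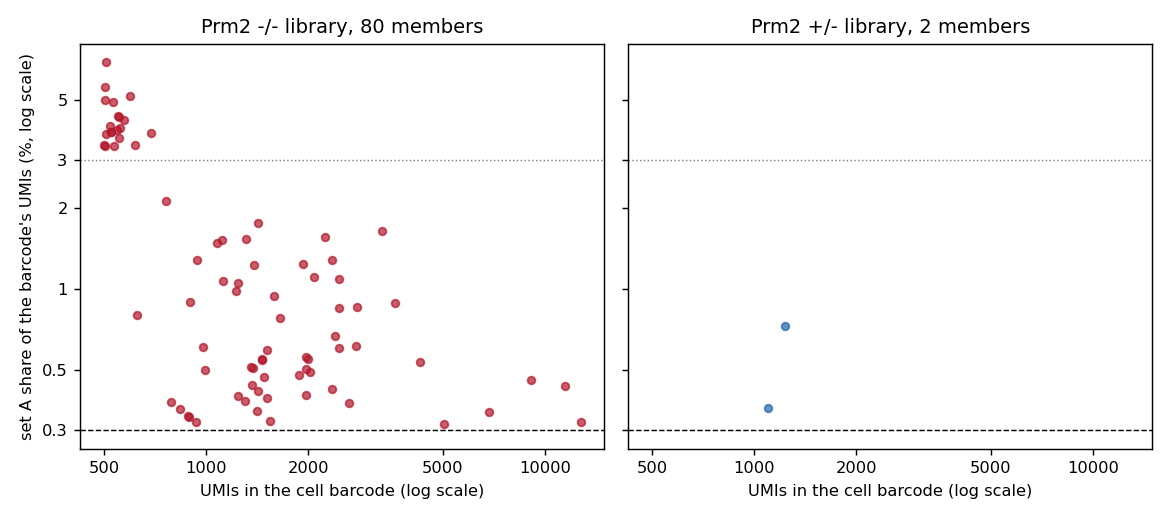
Set A share of UMIs against the UMIs of each member (both log axes), KO left and het right; the dashed line is the 0.3% limit of the rule and the dotted line the 3% cut. In KO 20 shallow barcodes lie above 3% and the other 60 at or below 2.11%.

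Above the cut, Acta2 stood at 22869 CPM and Tagln at 12491 CPM, against 2980 CPM and 716 CPM below it. Myh11 differed less, at 3031 CPM above and 1656 CPM below. Outside the rule genes, Postn, which encodes the matrix protein periostin, had the largest ratio, with 16 UMIs above the cut and 1 below. Fmo2, a flavin monooxygenase, came next with 14 and 2. Nox4, an NADPH oxidase, and Serpine2, a secreted serpin, each had 13 and 2, and Npnt (nephronectin, a ligand of integrin alpha 8) 12 and 2. Fn1, fibronectin, was the last of the 12 largest ratios, with 14 and 6. Synpo2, an actin-binding protein of muscle, had 10 and 3. In CPM, Postn was at 1470 above (interval 840 to 2386) and 7.23 below (0.183 to 40.3).

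Other genes were seen only below the cut. Col4a4 had 0 UMIs above and 283 below, Col4a3 0 and 139, Cyp26b1 (a retinoic acid-degrading enzyme) 0 and 114, Tshz2 0 and 128, and Fhl2 0 and 87. Against the level that 3 UMIs would give above the cut, Col4a4 was at least 7.43-fold lower there and Col4a3 at least 3.65-fold lower. All 10 hedgehog response genes together had 0 UMIs above the cut and 998 CPM below it. At 0 UMIs that summed level is at most 276 CPM by the floor of 3 UMIs. For single genes such as Hhip (0 above, 26 below) and Gata4 (0 above, 17 below) the shallow sum above the cut could not have shown a level as low as that below it.

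Depth and spermatid UMIs moved with this split. Prm1, Tnp1 and Tnp2 gave a median of 3 UMIs per barcode above the cut (0 to 6) and 16 below it (3 to 1148). The 11 barcodes below the cut with under 1000 UMIs had a median of 12 (5 to 25) and still held 14 Col4a4 UMIs, 1470 CPM. Malat1 stood at 36646 CPM above the cut and 8107 CPM below it. In those 11 barcodes Malat1 was at 5249 CPM, and in KO stromal barcodes at 11953 CPM. Pericyte and vascular smooth muscle markers summed to 1561 CPM above the cut and 246 CPM below, with 8 of the 10 Rgs5 UMIs above it. Of the 17 marker UMIs above the cut, 7 lay in 1 barcode and 3 in another. Only 9 of the 20 barcodes above held any, as did 26 of the 60 below. Kcnj8, Higd1b and Vtn were at 0 in all KO members. Endothelial markers had 0 UMIs above the cut and 5 below, with 10 of 12 at 0 in all KO members, Pecam1 and Cdh5 among them. Scrublet called 0 doublets above the cut and 11 below. The part of any of these in the split was not tested.

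**Figure D4:**
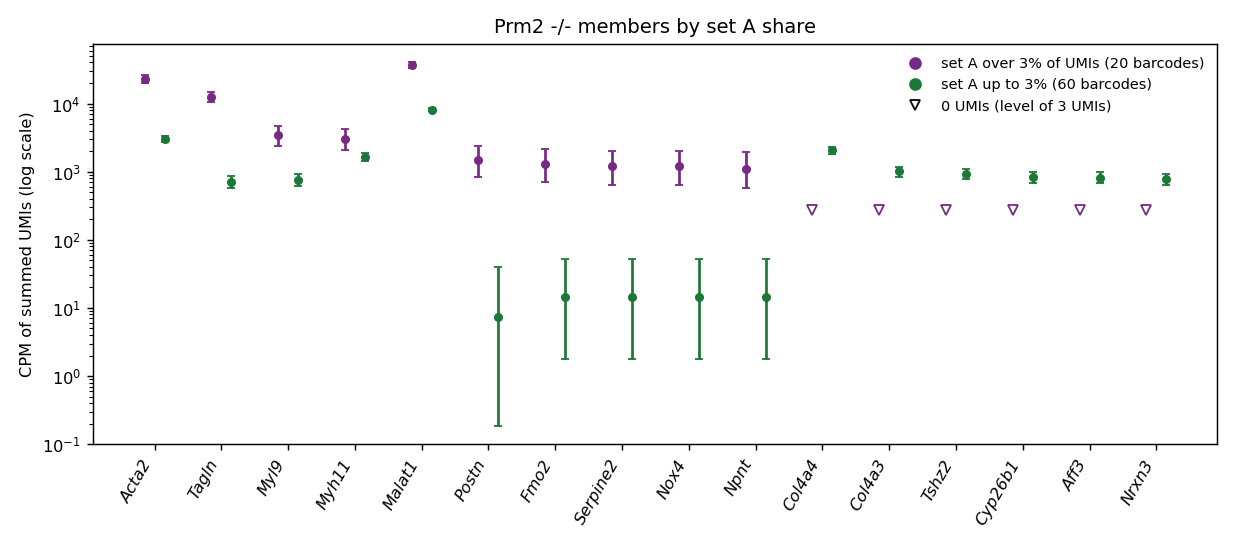
Levels of 16 genes in the KO members above (left) and below (right) the 3% cut, as CPM of summed UMIs on a log axis with 95% Poisson intervals; triangles mark 0 UMIs at the level of 3 UMIs. Postn was at 1470 CPM above and 7.23 CPM below, and Col4a4 at 0 UMIs above and 2047 CPM below.

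To set the members beside the other somatic classes, UMIs were summed per class and library and compared across 6532 genes outside the class rules with edgeR's quasi-likelihood test, library as a block, with Benjamini-Hochberg adjustment over all genes tested. At an adjusted p under 0.05, 69 genes (1.06%) were higher and 83 (1.27%) lower in myoid than in stromal barcodes. Against Sertoli barcodes 561 (8.59%) were higher and 432 (6.61%) lower. The het myoid sum held 2329 UMIs and took a TMM factor of 3.93, against 0.625 to 0.975 in the other 7 sums. Without it 8849 genes could be tested, and 100 were higher and 67 lower than in stromal barcodes, 66 and 60 of them shared. Because members are classed by transcripts and the only spread is between 2 libraries of unlike genotype, p-values describe these libraries.

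Genes of contraction were often higher in the members than in stromal barcodes. Of 31 tested genes of a 40-gene list of the contractile apparatus, 14 were higher than in stromal barcodes and 0 lower, with a median log2 difference of 1.39 against -0.19 over all genes tested. Of all genes tested 1.06% were higher and 1.27% lower. Tpm2, which encodes beta-tropomyosin, stood at 818 CPM in KO members, with 3 UMIs in het members, against 27.4 CPM and 55.7 CPM in KO and het stromal barcodes (log2 4.36, adjusted p = 1.2e-12 by edgeR). Dmd, which encodes the dystrophin that ties actin to the membrane, stood at 1629 CPM in KO members, with 1 UMI in het members, against 257 CPM and 135 CPM in KO and het stromal barcodes (log2 2.36). Mylk, the kinase that switches on smooth muscle myosin, was also higher (log2 2.37), as were Ppp1r12a, the targeting subunit of the phosphatase that opposes it (log2 2.61), Tpm1 (2.20), Flna (3.05), Actn1 (2.28) and Lmod1 (3.13). Actb (log2 -0.19) and Cald1 (1.38) did not pass. Without the 20 barcodes of over 3% set A, 10 were higher and 1 lower, the lower one being Myl12b, and with members of at least 1000 UMIs alone 9 were higher and 1 lower. Cnn1, the calponin of smooth muscle, was left out by the filter: KO members held 45 UMIs (302 CPM) and stromal barcodes of both libraries 0, which puts it at least 30.5-fold higher than the level of 3 UMIs over those stromal barcodes.

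Against Sertoli barcodes 24 of the 31 were higher and 0 lower, with a median log2 difference of 4.01 against -0.18 over all genes tested. Of all genes tested 8.59% were higher and 6.61% lower. Cald1, which encodes caldesmon, stood at 1468 CPM in KO members, with 1 UMI in het members, against 8.89 CPM in KO Sertoli barcodes (log2 7.13).

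Many smooth muscle genes carry a CArG box, the site of serum response factor, in their promoters. With 1 G or C allowed in its A and T core, the box was sought in the 250 bases before the start in RefSeq promoters (GRCm38.p6). It was found for 9.78% of 27025 symbols and for 10 of the 35 contractile genes with a promoter there. Acta2 and Myl9 of set A held 2 boxes each, as did 0.759% of all symbols; 3 of the 6 set A genes had a promoter in the table. The 170 bases before the start are shown for these 2 genes and for Myl6, of a myosin light chain, and Dmd, on the strand of the gene, with boxes in capitals. They lie at chr19:34255374-34255543 (minus strand) for Acta2, chr2:156775294-156775463 (plus) for Myl9, chr10:128493010-128493179 (minus) for Myl6 and chrX:82948700-82948869 (plus) for Dmd.
Acta2: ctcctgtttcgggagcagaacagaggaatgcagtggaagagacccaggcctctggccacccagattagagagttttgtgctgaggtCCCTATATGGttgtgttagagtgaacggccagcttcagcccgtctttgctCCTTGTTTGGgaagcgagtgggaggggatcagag
Myl9: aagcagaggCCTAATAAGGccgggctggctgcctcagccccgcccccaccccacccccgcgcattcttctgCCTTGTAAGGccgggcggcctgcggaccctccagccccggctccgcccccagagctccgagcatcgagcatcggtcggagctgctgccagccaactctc
Myl6: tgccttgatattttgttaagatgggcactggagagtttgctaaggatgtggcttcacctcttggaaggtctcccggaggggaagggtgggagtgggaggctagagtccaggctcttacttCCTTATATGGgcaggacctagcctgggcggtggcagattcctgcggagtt
Dmd: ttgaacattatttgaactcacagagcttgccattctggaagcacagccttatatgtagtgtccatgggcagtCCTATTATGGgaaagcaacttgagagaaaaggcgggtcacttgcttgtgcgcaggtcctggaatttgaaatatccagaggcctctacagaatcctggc
Counted from the start, the first bases of the boxes lie at -84 and -34 in Acta2, -161 and -99 in Myl9, -50 in Myl6 and -98 in Dmd. A match of letters is a description and no measure of binding.

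Of 9 tested genes that signal to the contractile machinery, 3 were higher than in stromal barcodes and 0 lower (median log2 0.82), beside 1.06% and 1.27% of all genes tested. The 3 were Prkg1, the cGMP-dependent kinase (log2 2.67), Kcnma1, the large-conductance calcium-activated potassium channel (2.12), and Itpr1, an inositol trisphosphate receptor (1.61). Without the members of over 3% set A, 1 of 9 was higher, as with DESeq2. In KO members the list summed to 6705 CPM above the 3% cut and 2459 CPM below it. Rock1 (1.09) and Rock2 (0.56), kinases that restrain myosin phosphatase, did not pass. Of the receptors listed, Ednra, for endothelin, had 9 UMIs in KO members and 0 in het members, while Oxtr, Avpr1a, Agtr1a, Ednrb and Adra1d had 0 in KO members, where 3 UMIs would be 20.1 CPM. Among integrins and matrix receptors 1 of 10 tested was higher than in stromal barcodes, against 1.06% of all genes tested. It was Itga1 (log2 2.95), the collagen-binding integrin alpha 1. Itga1 stood at 416 CPM in KO members against 32.8 CPM and 47.7 CPM in KO and het stromal barcodes. The fit without the het myoid sum added Itga8 (log2 4.95).

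Basement membrane and matrix genes were mostly higher than in Sertoli barcodes. Against Sertoli barcodes 19 of 27 tested were higher and 0 lower (median log2 4.91), beside 8.59% and 6.61% of all genes tested. Against stromal barcodes 2 were higher and 2 lower (median -0.16, close to the -0.19 of all genes), beside 1.06% and 1.27% of all genes tested. The 2 higher were Eln, which encodes elastin (456 CPM in KO members, 126 CPM and 63.7 CPM in KO and het stromal barcodes, log2 1.60), and Timp3, an inhibitor of matrix proteases (log2 2.40). The 2 lower were Fbn1, which encodes fibrillin 1 (log2 -2.09), and Mgp, matrix Gla protein (log2 -1.80). Mgp and Fbn1 did not pass without the het myoid sum. The common basement membrane chains Col4a1 (log2 -0.05) and Lama2 (-1.03) did not pass against stromal barcodes. The KO members were not alike in this list, which summed to 21216 CPM above the 3% cut and 6256 CPM below it. KO stromal barcodes stood at 7593 CPM. Without the members of over 3% set A, 1 of 25 tested was higher than in stromal barcodes and 3 were lower.

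The minor chains of basement membrane collagen, Col4a3 and Col4a4, are not in that list and were singled out after their values were seen. Both sit head to head on chromosome 1. Col4a3 stood at 932 CPM in KO members, with 6 UMIs in het members, against 159 CPM and 127 CPM in KO and het stromal barcodes (log2 2.43, adjusted p = 9.4e-07 by edgeR). Col4a4 stood at 1897 CPM in KO members, with 5 UMIs in het members, against 383 CPM and 326 CPM in KO and het stromal barcodes (log2 1.88, adjusted p = 0.0026 by edgeR). Of the KO members 50 held a Col4a4 UMI.

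Hedgehog response genes were present at low levels. Ptch1, the receptor and a target of the pathway, stood at 362 CPM in KO members (29 of 80 with a UMI), with 1 UMI in het members, against 137 CPM and 111 CPM in KO and het stromal barcodes. It did not pass against stromal barcodes (log2 1.24, adjusted p = 0.11 by edgeR) and did so without the het myoid sum (1.44, 0.039). Of 5 tested genes 0 differed from stromal barcodes. Over all genes tested 1.06% were higher and 1.27% lower, so 5 genes are too few to read this as a likeness. Against Sertoli barcodes 4 of the 5 were higher, Ptch1, Gli2 and Boc among them, as were 8.59% of all genes tested. Hhip had 26 UMIs in 20 KO members and 0 in het members, against 0 and 1 UMI in KO and het stromal barcodes, and was testable only in the fit without the het myoid sum (log2 5.93, adjusted p = 0.032 by edgeR).

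**Figure D5:**
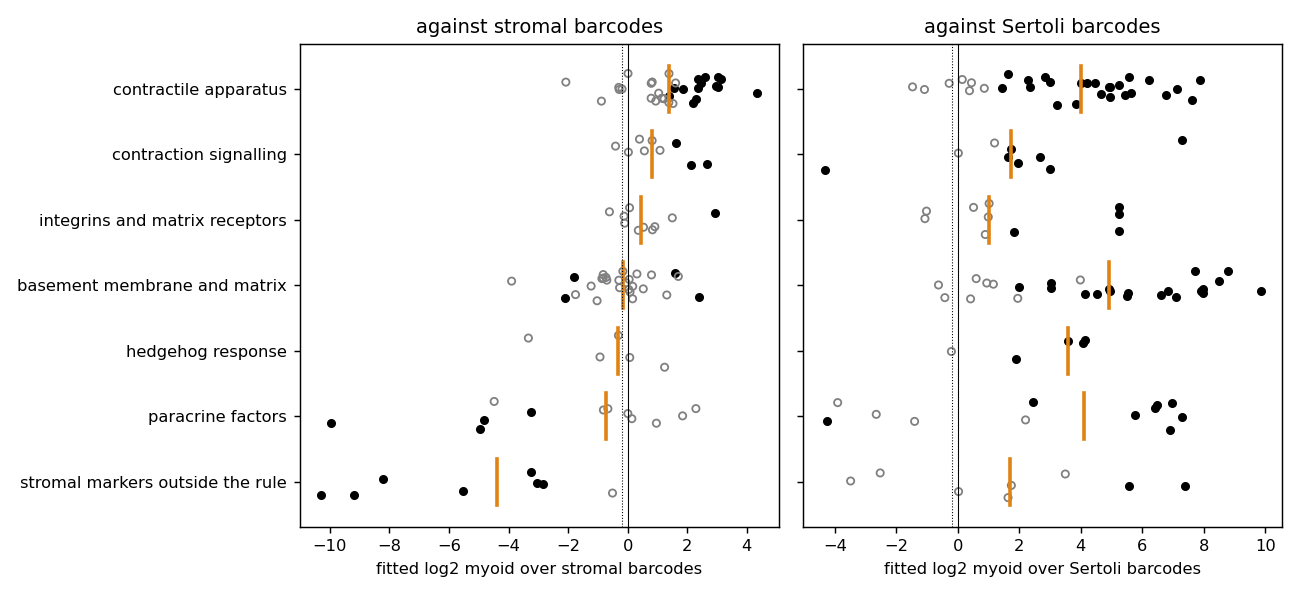
Fitted log2 difference, myoid over stromal (left) and myoid over Sertoli (right), for each tested gene of 7 lists; filled points passed an adjusted p of 0.05 in edgeR, bars are list medians and the dotted line is the median of all genes. Contractile genes lie mostly above 0 in both comparisons (medians 1.39 and 4.01), matrix genes mainly against Sertoli barcodes (median 4.91).

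Of 12 tested regulators of smooth muscle and gonadal fate, 0 differed from stromal barcodes either way (median log2 0.43). Over all genes tested 1.06% were higher and 1.27% lower, so 12 genes are too few to read this as a likeness. Against Sertoli barcodes 7 of 12 were higher, as were 8.59% of all genes tested. Nr2f2, a nuclear receptor of interstitial cells, was at 302 CPM in KO members and 0 UMIs in het members, against 290 CPM and 294 CPM in KO and het stromal barcodes. Myocd had 22 UMIs in 18 KO members and 0 in het members, with 0 in stromal and Sertoli barcodes of both libraries. Members were thus at least 14.9-fold over the level of 3 stromal UMIs for Myocd. The filter left it out of the main fit, and without the het myoid sum its fitted log2 difference over stroma was 8.76.

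Of 12 tested genes of secreted paracrine factors 4 were lower than in stromal barcodes and 0 higher (median log2 -0.74). Over all genes tested 1.27% were lower and 1.06% higher (median log2 -0.19). The 4 were Cxcl12, a chemokine (log2 -4.96), Kitl, the ligand of Kit (-4.81), Igfbp6 (-3.26) and Igfbp4, with 0 UMIs in members. Igfbp6 stood at 201 CPM in KO members, with 1 UMI in het members, against 1017 CPM and 3199 CPM in KO and het stromal barcodes. Crispld2 (log2 0.97) and Wnt5a (2.29) did not pass. The stromal markers that the rule did not use were lower for 7 of 8 tested (median log2 -4.40), against 1.27% of all genes tested. Set B, which the rule holds under set A, was lower in sum by choice. It summed to 1462 CPM in KO members and 6986 CPM in KO stromal barcodes, but its genes were not alike. Dcn stood at 188 CPM and 4513 CPM. Col1a1 stood at 442 CPM (interval 342 to 563) and 514 CPM (416 to 629). Gsn, which encodes gelsolin, stood at 114 CPM in KO members and 0 UMIs in het members, against 4163 CPM and 4512 CPM in KO and het stromal barcodes.

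Early response genes, which tissue dissociation can induce, were lower than in stromal barcodes in 6 of 17 tested and higher in 0 (median log2 -1.48). Of all genes tested 1.27% were lower and 1.06% higher (median log2 -0.19). In sum they stood at 4050 CPM in KO members below the 3% cut but at 8542 CPM above it. KO stromal barcodes stood at 8599 CPM. Junb stood at 181 CPM in KO members, with 0 UMIs in het members, against 892 CPM and 1226 CPM in KO and het stromal barcodes (log2 -2.89). Fos passed with all sums (log2 -1.73) and not without the het myoid sum. Against Sertoli barcodes 11 of the 17 were higher, as were 8.59% of all genes tested.

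Among single genes, the largest fitted differences over stroma belonged to 4 genes at 0 UMIs in stromal barcodes and with few UMIs in members. Cd74, Wnk3 and Cmtm6 had 8 UMIs each in KO members, at least 5.43-fold over the level of 3 stromal UMIs, and Pip5k1b had 7, at least 4.75-fold. All of these came from KO (0 in het members). The Cd74 UMIs, of the MHC class II chaperone, lay in 2 barcodes, and Cd74 did not pass without the het myoid sum (adjusted p = 0.064 by edgeR). Macrophage markers summed to 382 CPM in KO members, against 181 CPM in KO stromal and 334 CPM in KO Sertoli barcodes, 31 of 57 UMIs being Aif1, with Cd68, Csf1r, C1qc and Adgre1 at 0. Next came Kcnip1, a partner of Kv4 potassium channels (log2 4.90), Reep1 (4.75), Tpm2, Ccdc141 (4.25), Tmem47 (4.04), Tiam1, a Rac exchange factor (3.79), Tnnt2, troponin T of the heart (3.77), Casq2, a calcium store protein of muscle (3.55), Dtna, a partner of dystrophin (3.53), Pdzd2 (3.41) and Tenm3 (3.33). Casq2 was seen in 19 of 80 KO members, with 1 UMI in het members, and lost its call without the het myoid sum (adjusted p = 0.091 by edgeR).

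The 10 largest differences the other way were genes at 0 UMIs in members of both libraries. Clec3b, which encodes tetranectin, was at 454 CPM and 557 CPM in KO and het stromal barcodes, so members were at least 25-fold lower against the level of 3 UMIs. Nrk was at least 17.4-fold lower, Igfbp4 16.4-fold, Cd34 13.4-fold and Entpd2 11.3-fold. Ly6a, also known as Sca-1, was at least 11.0-fold lower, Efemp1 and Prlr 10.5-fold each, Agt 9.66-fold and Thbd 9.0-fold.

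The 10 genes highest over Sertoli barcodes all had 0 UMIs there. Ptgis, which encodes prostacyclin synthase, stood at 463 CPM in KO members with 1 UMI in het members, at least 166-fold over the level of 3 Sertoli UMIs. Eln was at least 161-fold, Cped1 149-fold, Ror1 (a Wnt5a receptor) 102-fold, Ahnak 99.4-fold, Ldb2 97.0-fold and Ltbp4 92.3-fold higher. Nalcn, a sodium leak channel, and Cacnb4, a calcium channel subunit, were each at least 89.9-fold higher, and Cavin1, which shapes caveolae, 75.7-fold. Sertoli markers outside the rule went the other way, with 6 of 9 lower in members and 0 higher, beside 6.61% and 8.59% of all genes tested. Clu stood at 147 CPM in KO members and 2129 CPM in KO Sertoli barcodes (log2 -4.30).

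KO and het members could hardly be compared gene by gene. A single UMI in the het members equalled 429 CPM and a single one in KO members 6.70 CPM. Of 899 genes with at least 30 UMIs over both and 100 CPM in one, 419 had 0 het UMIs and 417 of these allowed no fold. At the 2-fold rule of size, 13 (1.45%) were higher and 184 (20.5%) lower in KO, and with TMM scaling 359 were higher and 4 lower. The interval lay above 1-fold for 1 of the 13, Acta2, a gene of the rule by which the members were chosen. It had 661 UMIs in KO and 0 in het, a log2 difference of 1.78 against the level of 3 het UMIs, with the interval from 1.48 upward. For 33 of the 184 the interval lay below 1-fold.

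The highest after Tmsb4x (313 UMIs in KO, 1 in het; log2 2.29, interval -0.20 to 7.60) were Dmd (log2 1.92), Tagln, Acta2, Cald1 (1.77), Myl6 (1.77), Gsg1 (1.37), Ybx1 (1.33), Ropn1l (1.29) and Morf4l1 (1.17), and apart from Acta2 each had 1 het UMI. The lowest was Defb19, with 39 UMIs in KO (261 CPM) and 9 in het (3864 CPM; log2 -3.89, interval -4.96 to -2.65), all 9 in the het barcode that met the Sertoli rule. Cmss1 had 53 UMIs in KO and 11 in het (log2 -3.73), Timm8b 30 and 4 (-3.09), Sin3b 37 and 4 (-2.79) and Cdk8 28 and 3 (-2.78). Atp8b3 (-2.54), Fam229a (-2.52), Nme2 (-2.45), Tmco5 (-2.39) and Eif5a (-2.34) followed, each on 3 to 5 het UMIs.

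The calls of the class comparison depended on the design. With only the myoid and stromal sums in the fit, which leaves 1 residual degree of freedom, 3 genes were higher and 0 lower, and DESeq2 gave 11 and 19. Contractile genes numbered 0 higher in that smaller fit, 3 with DESeq2 and 19 with totals in place of TMM, each with 0 lower.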

How the data were processed

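Single-cell RNA was measured in 1 Prm2 -/- and 1 Prm2 +/- testis library with a 10x Genomics 3' kit, per the labels' protocols. The deposited values are UMI counts per gene and barcode, and per the file headers Cell Ranger 7.1.0 wrote them. Seurat 4.1.0 and mm10 are named in the submitters' processing notes. No barcode had under 500 UMIs. Members and lists were chosen with earlier results of these data known.

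Stromal, Sertoli and Leydig barcodes were chosen by marker counts (at least 3 UMIs and 0.3%, Leydig 1%) and spermatids by 10% of Prm1, Tnp1 and Tnp2. Sums per class and library entered edgeR 4.0.16 (TMM, filterByExpr, quasi-likelihood test, 8 sums of 4 classes, library as block, Benjamini-Hochberg); DESeq2 1.42.0 was an alternative. The scripts were tested on simulated data. Poisson, Clopper-Pearson and conditional binomial intervals came from scipy 1.17.1, doublets from Scrublet in scanpy 1.11.5. A class at 0 was given a floor of 3 UMIs. Named genes are the 15 highest and 10 lowest against stromal barcodes and the 10 highest against Sertoli barcodes past the test, the 10 highest and 10 lowest KO over het, all without predicted names. Further ones are the rule genes and up to 6 members of each list by mean CPM. A few others were named after their values were seen: Postn and the other genes of the 3% split, Lmod1, Flna, Actn1, Tpm1, Mylk, Ppp1r12a and other list genes that passed the test, Col4a1, Lama2, Myl12b, Ednra and the receptors at 0, Col4a3, Col4a4, Cyp26b1 and Cnn1. Some genes that the rule names are not reported here. Positions follow mm10.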

Additional observations from a re-analysis of the deposited data

How the results depend on the processing

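The KO over het share of members stayed above 1 in each of the 10 other choices of members, between 14.3-fold (barcodes of at least 1000 UMIs) and 52.8-fold (barcodes meeting another rule left out), on 1 or 2 het barcodes; leaving out those of over 3% set A gave 20.1-fold. Genes 2-fold higher in KO members numbered 13 as reported, 5 with at least 5 set A UMIs, 8 with set A at 0.5%, 4 without barcodes meeting another rule, 3 thinned and 359 with TMM. Genes lower numbered 184 as reported, 66 with set A at 0.5%, 98 without Scrublet doublets, 4 with TMM, 34 thinned, 735 with a minimum of 10 UMIs and 24 with 100. Tagln, at 1.88, turned to -0.16 when barcodes were thinned. Against stroma, 69 genes were higher and 83 lower as reported; set A at 0.5% gave 40 lower (37 of them shared), totals 167 and 147, DESeq2 11 and 19, and the 2 classes alone 3 and 0. Against Sertoli barcodes, 561 were higher and 432 lower as reported; 10% mitochondrial UMIs gave 274 lower (255 shared), DESeq2 198 lower (190 shared), and the 2 classes alone 72 and 0. The causes were not tested. Totals moved the median of all genes from -0.19 to -0.02 (log2). Of the values recomputed for the 15 highest and 10 lowest genes named against stroma, 303 kept direction and call and 54 lost the call. For the 10 highest against Sertoli barcodes all 143 kept both. Other calls against Sertoli barcodes did not all hold. With the 2 classes alone, 0 of 8 tested Sertoli markers outside the rule were lower, and 7 of 20 contractile genes were higher. The alternatives with set A without Actg2, without the over-3% members and without the het myoid sum were chosen after seeing the data. The class comparison has the library as a block throughout. For KO against het: No paired analysis was possible because each genotype has 1 library. The 2329 UMIs of het members limit every KO and het comparison within them.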

Other observations

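Shallow barcodes with little spermatid RNA occurred in the KO library beyond the members. Among barcodes of 500 to 699 UMIs, Prm1, Tnp1 and Tnp2 gave 6 UMIs or fewer in 86 of 439 KO barcodes (19.6%) and in 1 of 566 het barcodes (0.177%), and the medians were 11 and 35. The limit of 6, the highest count in members of over 3% set A, was not scaled to these medians, so the shares of the libraries are not directly comparable. Of the 86 KO barcodes 20 were members, all of them over 3% set A, and 11 were stromal by the rule. The 66 that were not members, 11 stromal ones among them, held 109 UMIs of Hbb-bs, a hemoglobin chain (0 in the remaining 353 KO barcodes of this depth), 75 of Gsn (7 in the remaining), 60 of the matrix gene Mgp (7), 23 of Eln (0) and 19 of Pi16 (1). They also held 47 of Dcn (8), a gene by which the stromal ones were chosen.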
